A study of Mus musculus with 4 samples.

Results

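The 38 Hox genes examined here encode homeodomain transcription factors, and they were chosen by symbol from the platform annotation. Of these, 37 had a probe set that named no other gene, and each of the 37 had 1 such probe set. Hoxb8 shared its probe set with Hoxb7 and has no value of its own. The 37 genes stand among 19946 named genes on the array. A gene was called above the floor when its log2 intensity reached 6 on the highest of the 4 arrays, and dim otherwise. By this measure 20 Hox genes were above the floor and 17 were dim, against 62.8% of all named genes above it. As a check on the floor, 23 of 1015 odorant receptor genes (2.27%), which are silent in most tissues outside the nose, reached it.

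Hox genes lie in 4 clusters, named A to D, and members at matching positions in different clusters carry the same paralog number. Their order along the chromosome follows the order of the body regions in which they are used, with low numbers toward the head and number 13 at the tail end, which in the gut means the hindgut and its outlet. Polycomb complexes keep Hox genes silent outside their proper region, and mice lacking Bmi1 or Mel18 were first known for shifts in the identity of their vertebrae.

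The RNA came from colon epithelial cells of C57BL/6 mice aged 6 to 8 weeks, released with EDTA on day 12 of a colitis-associated cancer model. All mice, wild type included, had received 10 mg/kg azoxymethane, a colon carcinogen, and then 3.5% dextran sulfate sodium, which injures the colonic lining, in the drinking water for 5 days. The genotypes were Bmi1ΔIEC Mel18ΔIEC (DKO), Bmi1ΔIEC (Bmi1_KO here), Mel18ΔIEC (Mel18_KO here) and WT, with 1 Affymetrix Mouse Gene 1.0 ST array each. ΔIEC denotes deletion in intestinal epithelial cells, so other cells keep both genes, and the sources used here name neither the Cre driver nor the number of mice behind an array. BMI1 and MEL18 (gene symbol Pcgf2) are alternative subunits of Polycomb repressive complex 1. The comparisons ask how Hox transcripts differed with each deletion and with both. With 1 array per genotype no difference has a replicate check, and the differences below are values without a test.

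Several facts of the whole set bear on these values. Across 12527 genes above the floor the DKO array correlated with the others at 0.878 to 0.906, while the other pairs lay between 0.978 and 0.982. The spread of 1 array, bounded from the contrasts among the 4 arrays, gives an error scale of at most 0.407 for a log2 difference of 2 arrays and 0.352 for DKO minus the mean of the single deletions. Bmi1 read 7.64 in DKO, 7.43 in Bmi1_KO, 6.999 in Mel18_KO and 7.25 in WT, and Pcgf2 read 6.81, 6.72, 6.84 and 6.96 on the same arrays. Which exons were deleted is not given here, so these probe sets do not check the labels. All 11 epithelial markers were above the floor on all 4 arrays. The 12 seminal vesicle genes summed to an intensity of 199 in DKO, 414 in Bmi1_KO, 201 in Mel18_KO and 16432 in WT. DKO is therefore compared with the average of the 2 single-deletion arrays as well as with WT. The WT array still enters the mean of the other arrays, the distance from additivity, the limma model and the error scale. Whether this signal on WT bears on its Hox values was not tested.

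Detection differed between the clusters. In HoxA 9 of 10 genes were above the floor, all but Hoxa2. In HoxB 6 of the 9 genes with a value passed, namely Hoxb1, Hoxb3, Hoxb6, Hoxb7, Hoxb9 and Hoxb13. In HoxD the 5 genes with the highest numbers, Hoxd9 to Hoxd13, passed, and the 4 with numbers from 1 to 8 were dim. None of the 9 HoxC genes reached the floor, with log2 intensities between 3.95 and 5.62, among them Hoxc13, which is known for hair and nail formation. Of the 20 genes above the floor, 15 passed on all 4 arrays. Hoxa3 passed on 3, Hoxa11, Hoxb6 and Hoxd12 on 2, and Hoxd9 on Bmi1_KO alone, so their differences involve readings close to background.

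The 5′ end of the HoxD cluster showed the widest differences, with lower values on DKO. These genes pattern the limbs, the genitalia and the end of the gut. The promoters of Hoxd13 to Hoxd9 are shown because the first 4 of these neighbours were lower on DKO together while Hoxd9, next in the row, was not. Hoxd9 read near the floor on every array, so its readings are close to background. Hoxd12, with a single-deletion mean of 6.17 beside 6.00 for Hoxd9, still read 5.13 in DKO. Hoxd11 has 2 annotated starts. The sequences are those of RefSeq on GRCm38.p6, covering 250 bases before and 50 after the annotated start, read 5′ to 3′ in the direction of transcription, and capitals mark TTTAT or its reverse complement ATAAA, a core favoured by Cdx proteins:

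Hoxd13 promoter, chr2:74667975-74668274 (+ strand): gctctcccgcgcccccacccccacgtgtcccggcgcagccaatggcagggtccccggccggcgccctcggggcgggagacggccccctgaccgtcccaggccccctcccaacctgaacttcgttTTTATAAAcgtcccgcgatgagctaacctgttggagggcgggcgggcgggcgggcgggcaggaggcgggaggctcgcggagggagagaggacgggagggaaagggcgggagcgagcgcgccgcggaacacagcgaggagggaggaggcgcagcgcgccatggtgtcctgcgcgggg

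Hoxd12 promoter, chr2:74674763-74675062 (+ strand): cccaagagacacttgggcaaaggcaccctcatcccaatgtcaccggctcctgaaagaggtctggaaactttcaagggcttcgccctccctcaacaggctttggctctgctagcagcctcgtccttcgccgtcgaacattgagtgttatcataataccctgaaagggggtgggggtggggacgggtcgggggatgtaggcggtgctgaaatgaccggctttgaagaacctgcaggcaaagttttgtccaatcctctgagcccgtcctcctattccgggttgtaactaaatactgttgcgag

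Hoxd11 promoter, chr2:74679308-74679607 (+ strand): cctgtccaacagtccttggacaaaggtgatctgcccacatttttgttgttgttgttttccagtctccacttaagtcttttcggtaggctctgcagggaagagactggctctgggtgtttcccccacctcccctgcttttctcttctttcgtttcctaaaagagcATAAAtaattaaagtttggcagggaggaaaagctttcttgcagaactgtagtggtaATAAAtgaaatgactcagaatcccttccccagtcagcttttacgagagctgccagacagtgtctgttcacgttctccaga

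Hoxd11 promoter, chr2:74682073-74682372 (+ strand): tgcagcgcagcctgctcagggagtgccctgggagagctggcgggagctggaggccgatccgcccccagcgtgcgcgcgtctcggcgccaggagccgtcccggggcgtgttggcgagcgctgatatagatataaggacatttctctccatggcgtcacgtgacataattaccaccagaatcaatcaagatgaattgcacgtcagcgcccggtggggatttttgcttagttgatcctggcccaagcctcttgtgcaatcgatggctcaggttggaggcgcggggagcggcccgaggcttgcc

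Hoxd10 promoter, chr2:74691641-74691940 (+ strand): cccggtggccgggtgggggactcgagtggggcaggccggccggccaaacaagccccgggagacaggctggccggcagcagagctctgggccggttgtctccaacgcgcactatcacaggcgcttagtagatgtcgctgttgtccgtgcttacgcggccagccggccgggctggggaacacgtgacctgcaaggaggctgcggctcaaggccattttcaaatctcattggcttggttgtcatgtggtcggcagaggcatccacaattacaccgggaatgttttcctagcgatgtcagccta

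Hoxd9 promoter, chr2:74697513-74697812 (+ strand): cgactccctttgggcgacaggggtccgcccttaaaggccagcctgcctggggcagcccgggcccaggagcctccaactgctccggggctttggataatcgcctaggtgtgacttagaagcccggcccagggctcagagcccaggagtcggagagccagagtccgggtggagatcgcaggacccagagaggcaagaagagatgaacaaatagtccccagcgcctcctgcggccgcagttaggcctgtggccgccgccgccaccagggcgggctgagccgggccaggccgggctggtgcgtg

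The Hoxd13 window holds 1 match on each strand, overlapping in a run of 8 bases, the first Hoxd11 window holds 2 matches, and the other windows shown hold none. TTTAT, on either strand, was found in 9 of 24 Hox promoters from 22 members (37.5%) and in 40.0% of 32851 promoters of all genes. The run TTTACGA or TCGTAAA, of the kind bound by posterior Hox proteins, was found in 2 of 24, those of Hoxd11 and Hoxb8, and in 0.597% of all. The ratio of observed to expected CG pairs, a measure of the CpG-rich sequence to which Polycomb is recruited, had a median of 0.626 over Hox promoters and 0.384 over all. It was 0.904 for Hoxd13, 0.574 for Hoxd12, 0.257 and 0.875 for the 2 Hoxd11 windows, 0.754 for Hoxd10 and 0.573 for Hoxd9. These are descriptions of letters in a window, and no binding was measured.

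Hoxd13, required for the anal sphincter and the digits, read 7.70 in DKO, 9.11 in Bmi1_KO, 9.46 in Mel18_KO and 9.42 in WT. The DKO array stood below the other 3, which lay within 0.36 of each other. Its log2 difference was -1.58 from the single deletions, whose mean was 3.00-fold higher, and -1.72 from WT, which was 3.30-fold higher. Of all genes above the floor, 0.878% lay as far below in the first difference and 1.09% in the second.

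Hoxd12, which acts with Hoxd13 in the limb and the end of the hindgut, read 5.13 in DKO, 5.96 in Bmi1_KO, 6.37 in Mel18_KO and 6.16 in WT. Its differences were -1.04 from the single deletions and -1.03 from WT. The DKO and Bmi1_KO readings lie under the floor, so the size of this difference is rough, and with 32 added to each intensity before taking log2 it was -0.64 from the single deletions. Hoxd11, known with Hoxa11 for kidney and forearm development, read 7.48 in DKO, 7.99 in Bmi1_KO, 8.31 in Mel18_KO and 8.41 in WT. It differed by -0.67 from the single deletions and by -0.93 from WT. Hoxd10, which patterns hindlimb motor neurons, read 7.11 in DKO, 7.52 in Bmi1_KO, 7.91 in Mel18_KO and 7.80 in WT, with differences of -0.61 and -0.70. In all of these genes DKO was lowest and Bmi1_KO next, and DKO minus Bmi1_KO was -0.41 for Hoxd10, -0.51 for Hoxd11, -0.83 for Hoxd12 and -1.41 for Hoxd13. In RefSeq the gene models of Hoxd10 and Hoxd11 overlap on the same strand, so their probe sets could share transcripts.

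Hoxd9 read 5.99 in DKO, 6.01 in Bmi1_KO, 5.98 in Mel18_KO and 5.87 in WT, all near the floor and with no separation of the arrays. From Hoxd9 to Hoxd13, in cluster order, the differences from the single deletions were -0.00, -0.61, -0.67, -1.04 and -1.58. Each gene nearer the 5′ end thus had a lower value than its neighbour, but Hoxd10 and Hoxd11 were nearly level. Hoxd12 was read partly under the floor, and Hoxd9 near it on every array. The dim genes Hoxd8, Hoxd4, Hoxd3 and Hoxd1 differed by 0.13, 0.27, -0.13 and -0.10.

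**Figure D1:**
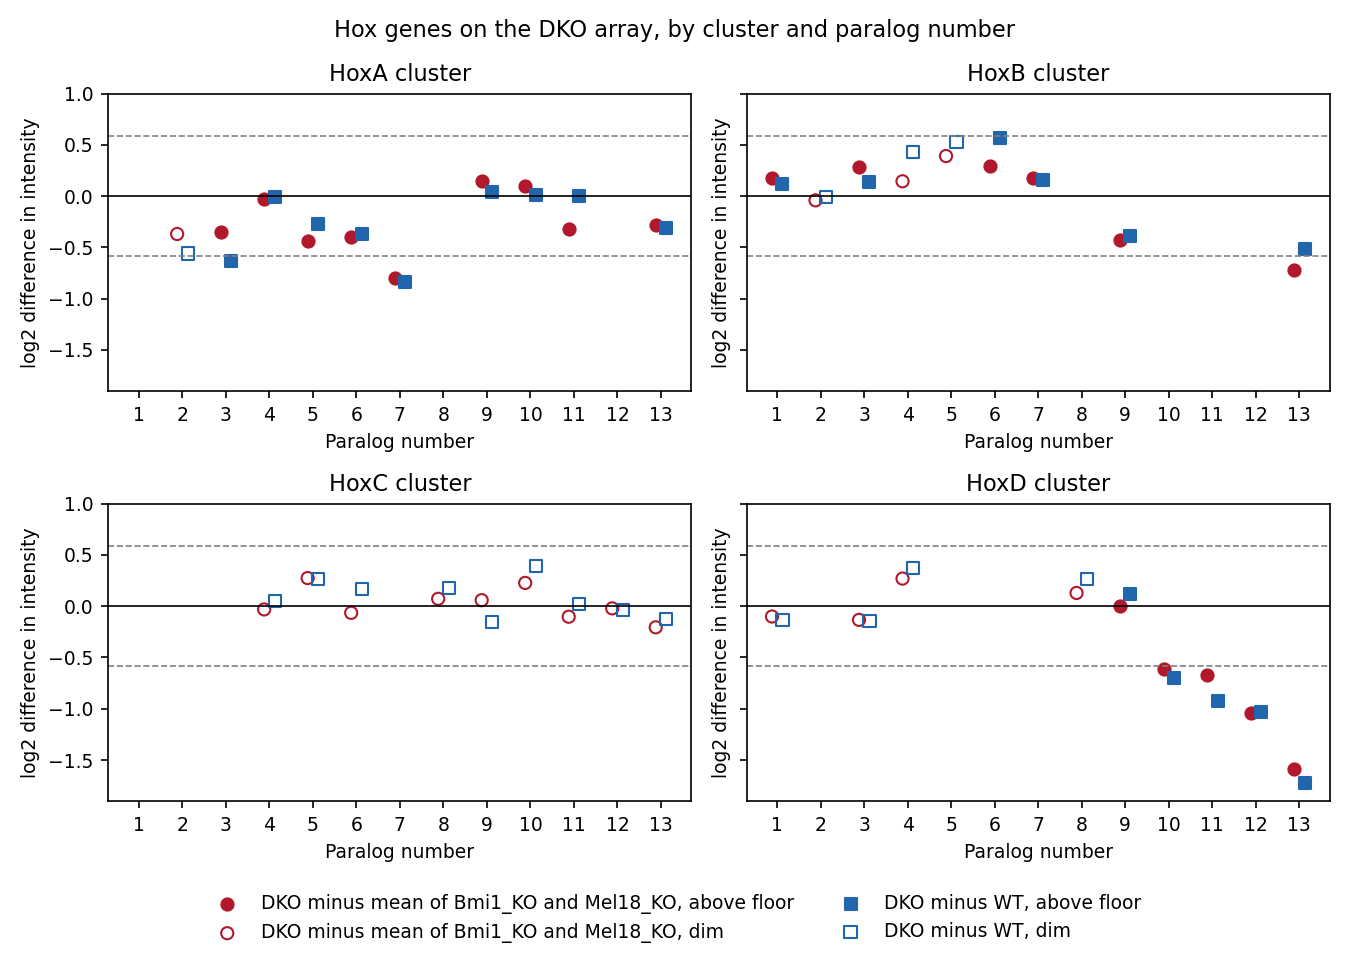
The log2 difference in intensity of DKO from the mean of Bmi1_KO and Mel18_KO (circles) and from WT (squares) is plotted against paralog number in each cluster, with filled symbols for genes above the floor, open symbols for dim genes and dashed lines at 1.5-fold. Hoxd10 to Hoxd13 step down to -1.58 and -1.72, whereas HoxC genes are all dim.

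The genes on either side of the HoxD cluster also varied. Past Hoxd13, the homeobox gene Evx2 read 6.97 in DKO, 7.07 in Bmi1_KO, 7.26 in Mel18_KO and 7.22 in WT, a difference of -0.20 from the single deletions. Beyond it, Lnpk, which shapes the endoplasmic reticulum, differed by -0.38 and the ATP synthase gene Atp5g3 by -0.82. On the other side of the cluster the mitochondrial gene Mtx2 differed by -0.83, the stress regulator Nfe2l2 by 0.22 and the peroxisomal enzyme gene Agps by 0.62. Differences of the size seen for Hoxd10 and Hoxd11 were thus present in nearby genes outside the Hox family. Hoxd13 had the lowest value in this stretch. Hoxd12 came next as deposited, but from readings partly under the floor, and its -0.64 with 32 added is a smaller difference than those of Mtx2 and Atp5g3 as deposited.

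HoxA genes had a median difference of -0.33 from the single deletions over 9 genes, with a range from -0.80 to 0.14. Hoxa7, which patterns the thoracic vertebrae, was lowest among them, with 7.53 in DKO, 8.44 in Bmi1_KO, 8.21 in Mel18_KO and 8.37 in WT. DKO lay apart from the other arrays, and the differences were -0.80 from the single deletions and -0.84 from WT. Hoxa3, needed for the thymus and parathyroid glands, read 5.92 in DKO, 6.21 in Bmi1_KO, 6.33 in Mel18_KO and 6.55 in WT. It was 1.55-fold higher on WT than on DKO (-0.64), yet only -0.35 separated DKO from the single deletions. Hoxa5, which acts in lung and gut maturation, and its neighbour Hoxa6 differed from the single deletions by -0.43 and -0.40, and Hoxa11 by -0.33. Hoxa9, a regulator of blood progenitors, and Hoxa10, which acts in the uterus, were slightly above, at 0.14 and 0.10, and Hoxa4 was level at -0.03. Hoxa4 changed sign under cyclic loess, as did the differences of Hoxa9 (0.04), Hoxa10 (0.01) and Hoxa11 (0.00) from WT after median centring.

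Hoxa13, the paralog that acts with Hoxd13 in the hindgut, read 8.43 in DKO, 8.58 in Bmi1_KO, 8.84 in Mel18_KO and 8.74 in WT. The DKO value was lowest, but its differences of -0.28 from the single deletions and -0.31 from WT were within the error scale. Next to Hoxa13 lies Hottip, a noncoding RNA transcribed away from it that in human cells promotes expression of the 5′ HoxA genes. Hottip read 6.26 in DKO, 7.52 in Bmi1_KO, 7.57 in Mel18_KO and 7.81 in WT, and differed by -1.29 from the single deletions and -1.55 from WT. The noncoding neighbour thus differed by more than Hoxa13 itself. Evx1, past Hottip, differed by -0.17, with 5.82 in DKO, 6.00 in Bmi1_KO, 5.97 in Mel18_KO and 5.88 in WT.

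Among HoxB genes above the floor, those with low and middle numbers were higher on DKO and those with high numbers lower. Hoxb13, a gene of the distal colon and prostate, read 10.5 in DKO, 11.19 in Bmi1_KO, 11.25 in Mel18_KO and 11.02 in WT. DKO was again apart and low, at -0.72 from the single deletions and -0.52 from WT. Hoxb9, which patterns the ribs, gave -0.43 and -0.39. Hoxb6 read 6.24 in DKO, 6.01 in Bmi1_KO, 5.88 in Mel18_KO and 5.68 in WT, with differences of 0.29 and 0.56, and part of its readings lay under the floor. Hoxb3, Hoxb7 and the hindbrain gene Hoxb1 were 0.28, 0.17 and 0.18 above the single deletions. All 3 of these differences were smaller than the error scale.

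**Figure D2:**
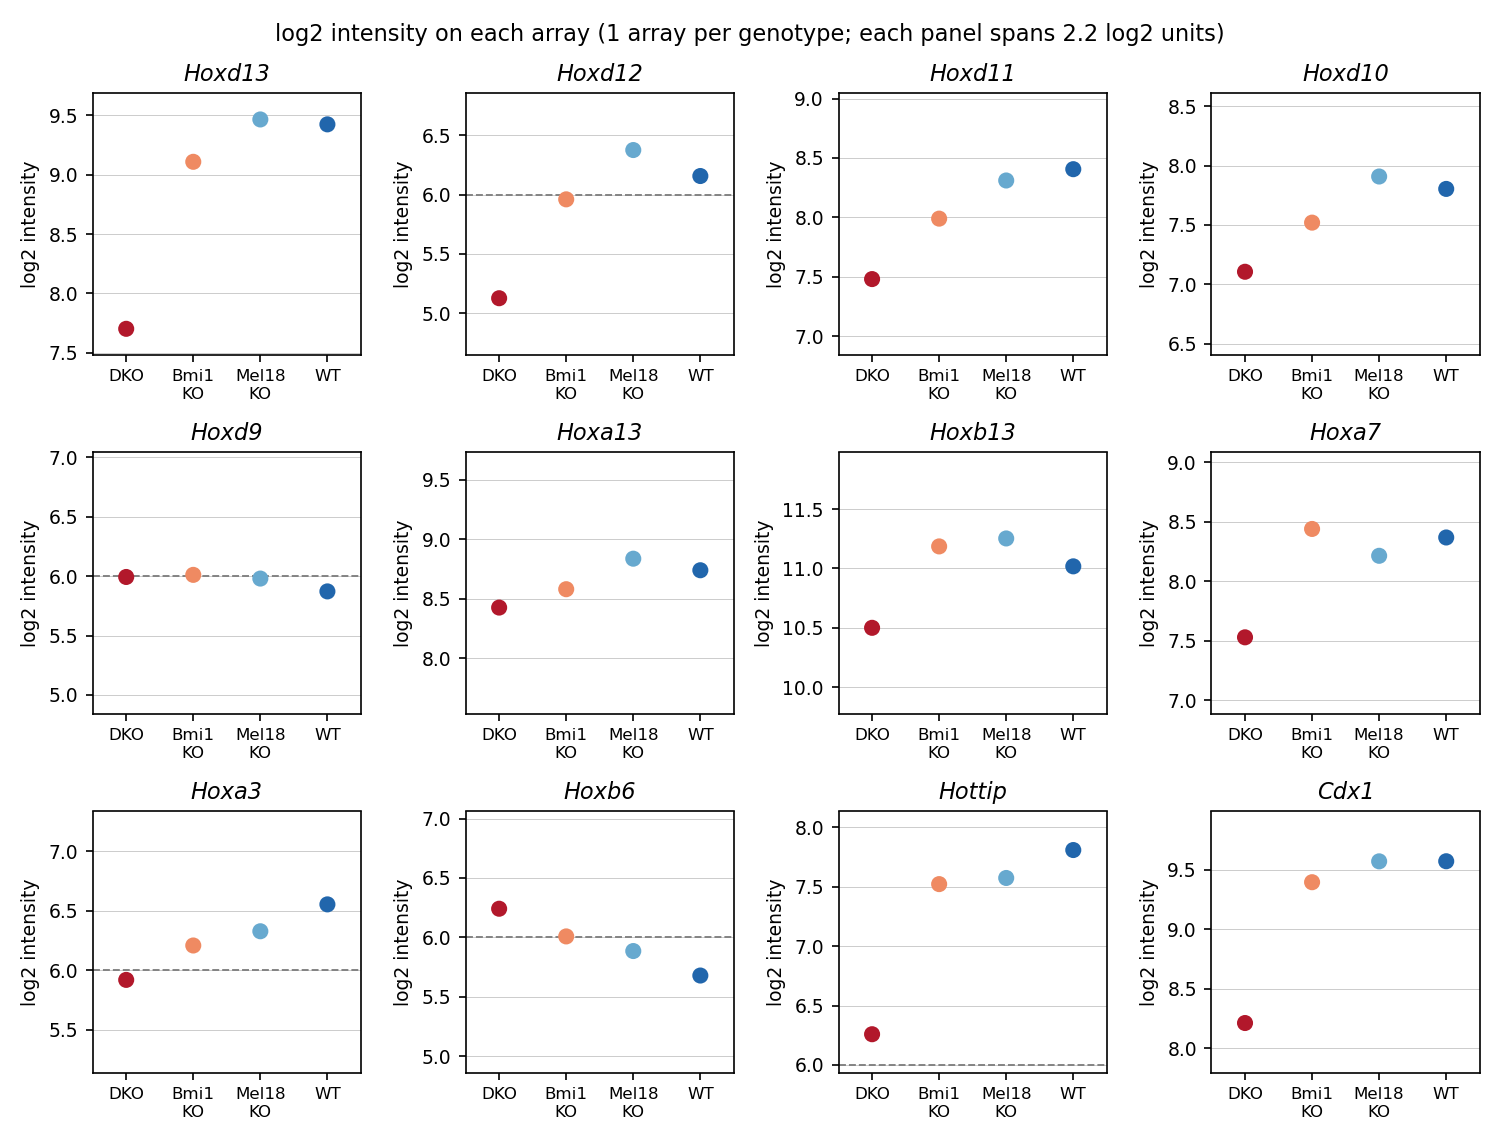
Each panel plots the log2 intensity of 1 gene on the DKO, Bmi1_KO, Mel18_KO and WT arrays, with the dashed line at the floor of 6 where it falls in the panel. DKO is the lowest array for Hoxd10 to Hoxd13, Hoxa3, Hoxa7, Hoxa13, Hoxb13, Hottip and Cdx1, and the highest for Hoxb6.

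Counted over all members above the floor, 6 of 20 lay 1.5-fold or more below the single deletions in DKO, beside 18.8% of all genes, and 0 were 1.5-fold higher, beside 14.0%. Those 6 were Hoxa7, Hoxb13, Hoxd10, Hoxd11, Hoxd12 and Hoxd13. Against WT the count was also 6 of 20 lower, beside 20.1% of all genes, with Hoxa3 in place of Hoxb13, and 0 higher, beside 14.3%. Only Hoxd12 and Hoxd13 were at least 2-fold lower, in both comparisons, beside 6.51% and 8.19% of all genes, and 0 were 2-fold higher, beside 7.33% in each. Set against the mean of the other 3 arrays, 6 of 20 were 1.5-fold lower, beside 19.2% of all genes, and 0 higher, beside 13.9%. At 2-fold these counts were 2, beside 6.91%, and 0, beside 7.27%. The median over the 20 genes was -0.34 from the single deletions and -0.30 from WT, where all genes above the floor gave -0.07 and -0.05. Values lower on DKO than on each other array were found for 12 of 20 members, beside 46.0% of all genes, and higher values for 6, beside 35.2%. With so many genes past the same folds on the DKO array, counts of this size are not particular to Hox genes. After cyclic loess 3 of 20 members, Hoxa7, Hoxd12 and Hoxd13, were at least 1.5-fold below the single deletions, beside 14.3% of all genes. The 17 dim genes differed from the single deletions by -0.37 to 0.39, with a median of -0.02.

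By paralog number, the groups were alike in direction in some cases and not in others, and differences between paralogs were not tested. In group 13 the values from the single deletions were -1.58 for Hoxd13, -0.72 for Hoxb13 and -0.28 for Hoxa13, while Hoxc13 was dim (5.18 in DKO, 5.33 in Bmi1_KO, 5.44 in Mel18_KO and 5.30 in WT). In group 11 Hoxd11 gave -0.67 and Hoxa11 -0.33, and in group 10 Hoxd10 gave -0.61 and Hoxa10 0.10. Group 9 held Hoxb9 at -0.43, Hoxd9 at -0.00 and Hoxa9 at 0.14. Groups 7 and 6 each had a HoxA member below (Hoxa7 -0.80, Hoxa6 -0.40) and a HoxB member above (Hoxb7 0.17, Hoxb6 0.29), and group 3 was alike with Hoxa3 at -0.35 and Hoxb3 at 0.28. By cluster, the medians from the single deletions were -0.67 for HoxD, -0.33 for HoxA and 0.18 for HoxB.

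On the single-deletion arrays Hox genes differed little from WT. On Bmi1_KO 0 of 20 members were at least 1.5-fold lower or higher, beside 1.53% and 2.02% of all genes, and the median was 0.00. The members ranged from -0.42 for Hoxd11 to 0.43 for Hoxa11, which read 5.78 in WT, under the floor. Past the error scale of 0.407 were 1 of 20 below and 1 of 20 above. Beside them stood 4.07% and 4.02% of all genes, so these counts are not particular to Hox genes. On Mel18_KO 0 of 20 were 1.5-fold lower or higher, beside 2.35% and 1.19%, and values ranged from -0.29 for Hoxb3 to 0.23 for Hoxb13 and Hoxa11. The 4 genes from Hoxd10 to Hoxd13 were nonetheless all below WT on Bmi1_KO, with differences of -0.28, -0.42, -0.20 and -0.32. On Mel18_KO they gave 0.10, -0.10, 0.22 and 0.04. Both sets share the WT array. Set directly against Mel18_KO, Bmi1_KO was lower in all 4, with differences of -0.39, -0.32, -0.42 and -0.36 in the same order, and between 4.50% and 9.24% of all genes lay as far below. None of these exceeded the error scale of 0.407 except Hoxd12, which lies near the floor. That scale takes in the DKO array and is wide. Across all genes, Bmi1_KO minus WT, the closest pair of arrays, had a narrower spread of 0.191. The 4 differences pass it, but they come from another pair, Bmi1_KO and Mel18_KO, whose own spread is not given here. With 1 array per genotype, whether the single deletions differ in these genes was not tested.

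**Figure D3:**
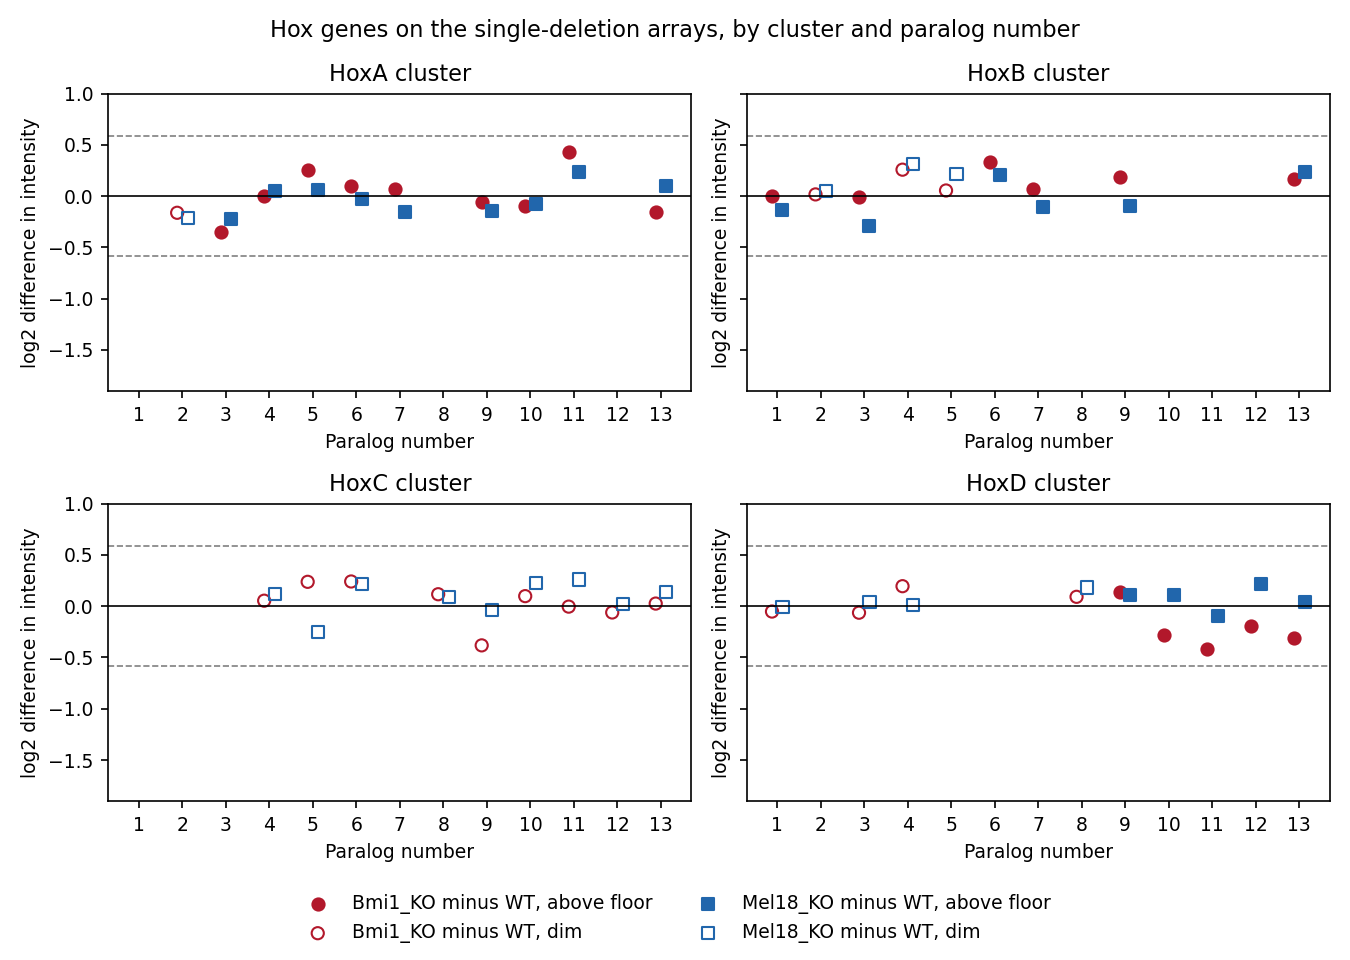
The log2 difference in intensity from WT of Bmi1_KO (circles) and Mel18_KO (squares) is plotted against paralog number in each cluster, on the same scale as for DKO, with open symbols for dim genes and dashed lines at 1.5-fold. No gene above the floor reaches a dashed line, and the Bmi1_KO circles of Hoxd10 to Hoxd13 lie between -0.20 and -0.42.

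Each member was also compared with the value that adding up the single-deletion differences would give. Its distance from that sum was lowest among the members for Hoxd13 at -1.45, where 1.55% of all genes lay as low. It was -1.05 for Hoxd12, -0.92 for Hoxb13 and -0.76 for Hoxa7, and highest for Hoxb3 at 0.43. Average differences with each deletion were tested with limma in an additive model over all genes, with 1 residual degree of freedom. That degree of freedom is the distance from additivity itself. A fall on DKO alone therefore adds to the error and is spread over both averages, so the model could not single it out. With loss of Bmi1, Hoxd13 averaged -1.04 (SE 0.43) and Hoxd11 -0.62 (SE 0.24), both with an adjusted p of 0.849 by Benjamini-Hochberg. With loss of Mel18 the adjusted p of Hoxa7, at -0.53 (SE 0.29), was 0.952. For either deletion 0 of 20 members and 0.0% of all genes passed a threshold of 0.05, and 0 of 20 members had an unadjusted limma p under it, beside 324 and 138 of all genes.

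Genes that act with or on Hox genes were set beside them. Cdx1 and Cdx2 encode intestinal homeodomain factors that activate posterior Hox genes. Cdx1 read 8.21 in DKO, 9.40 in Bmi1_KO, 9.57 in Mel18_KO and 9.57 in WT, and so was low on DKO alone, with a difference of -1.27 from the single deletions. Cdx2 read 8.65, 9.003, 9.13 and 9.07 on the same arrays, a difference of -0.42. Pdx1, a related factor of the duodenum and pancreas, was 0.58 above the single deletions, with 6.57 in DKO, 6.03 in Bmi1_KO, 5.95 in Mel18_KO and 5.68 in WT. Over the 4 Cdx and ParaHox genes above the floor, 1 was 1.5-fold lower, beside 18.8% of all genes, and 0 higher, beside 14.0%.

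The counts in the next lists stand beside 18.8% of all genes 1.5-fold lower than on the single deletions and 14.0% higher. Lists this short were not tested against those shares. TALE homeodomain proteins bind DNA together with Hox proteins. Of 6 above the floor, 0 were 1.5-fold lower than on the single deletions and 1 was higher, Meis2, with 6.03 in DKO, 5.25 in Bmi1_KO, 5.14 in Mel18_KO and 5.23 in WT. It reached the floor on DKO alone. Pbx3 and Pknox1 differed by -0.32 and -0.35. MLL complexes keep active Hox genes on by methylating histone H3. Of 12 trithorax and MLL complex genes, 4 were 1.5-fold lower and 0 higher, led by the shared subunit Dpy30 (8.93 in DKO, 10.12 in Bmi1_KO, 10.20 in Mel18_KO and 10.26 in WT) at -1.23 and by Men1, which encodes menin, at -1.17. Ash2l and Wdr5 followed at -0.69 and -0.63, while the methyltransferase genes Kmt2a, Kmt2b, Kmt2c and Kmt2d lay between -0.28 and 0.22. Retinoic acid induces Hox genes in order along the clusters. Of 7 retinoid genes above the floor, 1 was 1.5-fold lower, the retinaldehyde dehydrogenase gene Aldh1a1 at -1.20, and 1 higher, Aldh1a3 at 0.80. Precursors of Hox cluster microRNAs were level where above the floor, with Mir196a-1 at -0.20 and Mir615 at 0.02 from the single deletions.

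Markers of cell types and gut regions differed on DKO alongside the Hox genes, and their part in the Hox values was not tested. For the marker counts here and below, 18.8% of all genes were 1.5-fold lower than on the single deletions and 14.0% higher. The counts cover genes above the floor, while the summed intensities also take in the dim genes of each list. In such a mixed isolate, fewer cells that express a gene and less RNA per cell cannot be told apart. Epithelial markers had a median difference of 0.04 from the single deletions, with 0 of 11 at least 1.5-fold lower and 1 higher, and summed to 51929 in DKO, 48203 in Bmi1_KO, 49240 in Mel18_KO and 45418 in WT. All 8 leukocyte genes were higher, with a summed intensity of 13602 in DKO, 5949 in Bmi1_KO, 2139 in Mel18_KO and 3433 in WT. Endothelial genes were 1.5-fold higher in 6 of 7 cases and neutrophil genes in 7 of 8. Fibroblast genes, of a cell type that also expresses Hox genes, summed to 3755 in DKO, 2462 in Bmi1_KO, 1570 in Mel18_KO and 1759 in WT, with 4 of 10 higher and 0 lower. Smooth muscle genes summed to 1406 in DKO, 892 in Bmi1_KO, 899 in Mel18_KO and 1153 in WT, with 3 of 7 higher and 0 lower. Against WT 7 of 10 fibroblast genes and 1 of 7 smooth muscle genes were higher and 0 lower, beside 14.3% and 20.1% of all genes.

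Proliferation genes were lower in 9 of 9 cases, with a summed intensity of 3962 in DKO, 10013 in Bmi1_KO, 10111 in Mel18_KO and 12198 in WT. Genes typical of the small bowel were 1.5-fold higher in 10 of 13 cases and lower in 0. All 15 with a probe set summed to 13991 in DKO, 2754 in Bmi1_KO, 3468 in Mel18_KO and 3029 in WT. Among them Gata4, a factor of the proximal small bowel, read 8.93 in DKO, 6.46 in Bmi1_KO, 6.17 in Mel18_KO and 6.04 in WT. Of 6 squamous and anorectal genes, 3 were 1.5-fold lower and 1 higher, and Krt5, a basal keratin, read 5.82 in DKO, 8.05 in Bmi1_KO, 6.36 in Mel18_KO and 8.76 in WT. The stretch of colon sampled for each array was not stated.

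**Figure D4:**
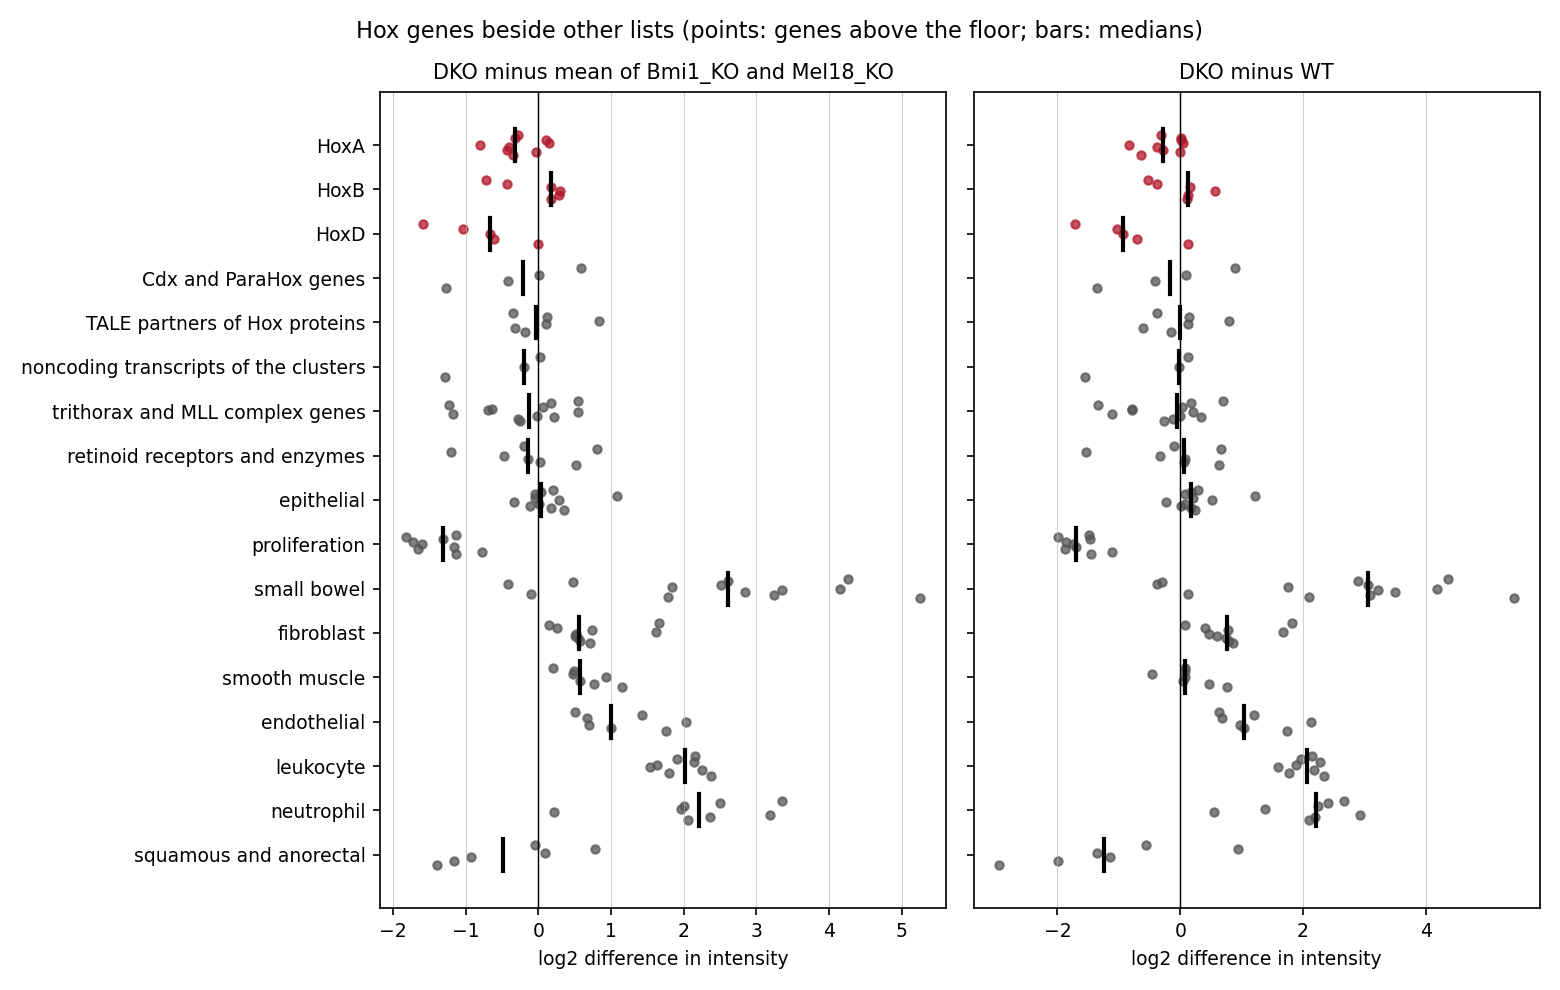
Points are log2 differences in intensity of genes above the floor, and black bars are medians, for DKO minus the mean of the single deletions (left) and DKO minus WT (right). The HoxD median of -0.67 from the single deletions lies on the same side as that of the proliferation genes, which have a median of -1.31 from the single deletions, and opposite to small bowel genes at 2.61 and leukocyte genes at 2.02.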

How the data were processed

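Epithelial isolates from 4 genotypes were measured on 1 array each. The authors deposited linear intensities per probe set. The submitters' processing notes name Affymetrix Expression Console and RMA, without versions. RMA brings the arrays to nearly the same distribution, which would take out any shift common to most genes. Array number limits the precision.

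Log2 of the deposited intensity was taken before any difference. Of 35556 probe sets, 21797 carried 1 symbol, 1613 several and 12146 none. The brightest probe set was used per gene, and all 37 measured Hox genes were found by gene identifier in the RefSeq table. The error scale is the smallest scaled median absolute deviation, across genes, of the 3 orthogonal contrasts of the layout. Each contrast takes in every array, DKO included, and real differences between genotypes enlarge the scale. Tests used lmFit and eBayes of limma 3.58.1 under R 4.3.3. They were checked on simulated data in which changes followed loss of Bmi1 and none was particular to DKO. Other steps used Python 3.11.15. Genes named were members at least 1.5-fold apart in a comparison, group 13, and the most different members of context lists. Some were added after their values were seen: the other members, the genes beside the clusters, and the context and marker genes named with small or no differences. Members and lists were chosen with earlier results of these data known. Odorant receptor genes, promoter motifs and flanking genes were added later.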

Additional observations from a re-analysis of the deposited data

How the results depend on the processing

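Alternatives were other floors, cyclic loess, median centring, 32 added to each intensity, 2-fold in place of 1.5-fold, other uses of probe sets and a trend in eBayes. No paired analysis was possible because each genotype had 1 array, and leaving out an array would leave limma no residual degrees of freedom. Over the comparisons of counts and medians and the limma counts, 146 alternative values were within tolerance of those reported and 5 were not. The tolerance was 1.5 times for a count and the error scale, which is wide, for a median. Part of the 146 could not differ. Each measured Hox gene had 1 probe set, so other uses of probe sets returned the same Hox counts and medians. A median also does not depend on the fold threshold. Within it, the median from the single deletions was -0.04 with dim genes included and -0.67 with a floor of 8. That from WT was -0.01 and -0.52. Also within it, the count at least 1.5-fold below the mean of the other 3 arrays was 4 after cyclic loess, beside 15.0% of all genes. With a floor of 8, 3 of 7 members were lower on DKO than on WT, beside 24.4% of all genes. After cyclic loess, 3 of 20 were lower than on the single deletions, near the 14.3% of all genes. With a 2-fold threshold 2 members were lower against WT (beside 8.19% of all genes), against the single deletions (6.51%) and against the other 3 arrays (6.91%). With 32 added, Hoxd12 gave -0.64 from the single deletions and -0.63 from the other 3 arrays, near-background readings being drawn together by construction. Median centring moved the median of all genes to -0.13 in DKO against WT and against the single deletions. Hoxd13 differed from the single deletions by -1.43 after cyclic loess and by -1.65 after median centring. The limma count was 0 in every alternative run, with adjusted p for the lowest member between 0.709 and 0.979. Signal near background limits Hoxd12, Hoxd9, Hoxa3, Hoxa11 and Hoxb6.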
